A study of Mus musculus with 8 samples.

Results

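The difference of Treg effects between monoclonal and polyclonal mice was measured in splenic CD4+ T cells, over all 8 libraries of the series (8 of 8) and 12881 of 24016 genes. A Treg effect is the mean log2(CPM + 1) of Foxp3 reporter-positive (Treg) libraries minus that of reporter-negative (non-Treg) libraries from the same kind of mouse, where CPM are reads per 1000000 reads assigned to genes. The difference is the monoclonal Treg effect minus the polyclonal one: a positive value means that Treg cells stood higher against their own non-Treg partners in monoclonal mice. Monoclonal Treg and monoclonal non-Treg cells came from NOD.TCRab.FoxP3GFP.Rag-/- mice, whose T cells carry 1 αβ receptor and which lack Rag, the recombinase that assembles receptors. Polyclonal Treg and polyclonal non-Treg cells came from NOD.FoxP3GFP mice with a diverse receptor repertoire. All 4 groups share the NOD background, which is prone to autoimmune diabetes, and a green fluorescent Foxp3 reporter. The labels call the monoclonal cells NT, and the series title names a nuclear transfer model, so the monoclonal arm stands for 1 receptor. Receptor, Rag genotype and strain changed together and cannot be told apart. Age, sex and which Rag gene is missing are not given, and no treatment is named. Each group held 2 libraries, A and B, in which order paired values are given below. Nothing says that A and B came from separate animals, so p-values measure only how far the 2 samples of a group differed, which may be technical.

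Regulatory T (Treg) cells restrain immune responses, and Foxp3 is the transcription factor that defines them. They take up IL-2 through Il2ra, usually carry little IL-7 receptor, and read their T cell receptor continuously through factors such as Nr4a1 and the Egr family. Naive T cells recirculate through lymphoid tissue with Ccr7, under transcription factors such as Tcf7 and Bach2, whereas effector or memory-like cells carry integrins and inflammatory chemokine receptors instead.

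Libraries held 14076330 to 19722321 assigned reads, so that a count of 0 allows up to 0.152 to 0.213 CPM, counting error only. The summed level of 22 T cell receptor complex and signalling genes was 11059 to 11592 CPM in the 4 monoclonal libraries and 13745 to 15321 CPM in the 4 polyclonal ones. Transcripts of antigen-presenting cells moved with the groups. Summed MHC class II transcripts were 6799 and 5095 CPM (Treg) and 19571 and 21943 CPM (non-Treg) in monoclonal mice, against 142 to 265 CPM in the polyclonal libraries. The 11 conventional dendritic cell markers summed to 511 and 474 CPM, 1880 and 2106 CPM, and 57.7 to 73.5 CPM in the same order. Macrophage and monocyte markers (17 genes) summed to 423 and 297 CPM, 669 and 747 CPM, and 74.3 to 98.6 CPM. B cell markers (13 genes) reached 377 and 398 CPM in the non-Treg libraries of monoclonal mice and 30.3 to 101 CPM elsewhere, and Pax5 and Vpreb3 were at 0 in every polyclonal library. Every difference below therefore sets a monoclonal pair of groups with unequal antigen-presenting cell transcripts against a polyclonal pair with few. The part of these transcripts in the differences was not tested, and fewer cells of a type cannot be told apart from less RNA per cell in such bulk samples.

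**Figure D1:**
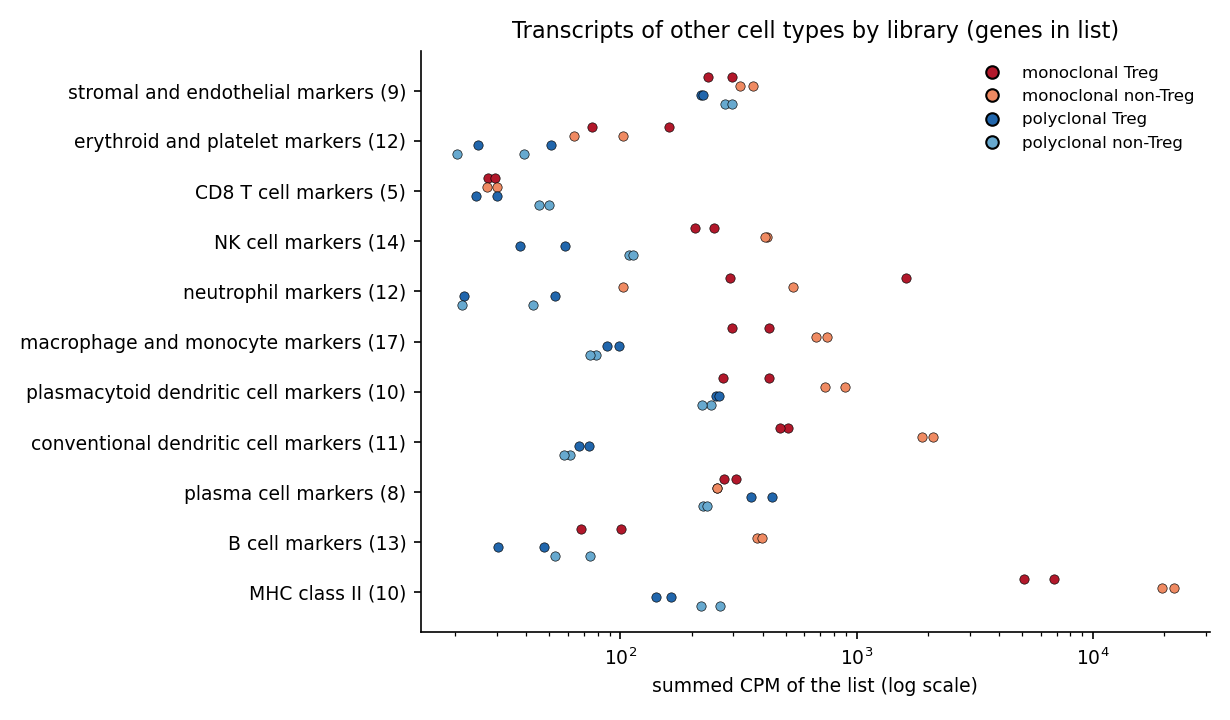
Summed CPM of marker genes of other cell types in each of the 8 libraries, on a log axis, 2 points per group. The monoclonal non-Treg libraries hold 19571 and 21943 CPM of MHC class II transcripts and the polyclonal libraries 142 to 265 CPM.

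The Treg effect differed between monoclonal and polyclonal mice for 1185 of 12881 genes (9.20%), at an adjusted p under 0.05 in limma, 2-sided, adjusted by Benjamini-Hochberg over all genes tested. It was higher in monoclonal mice for 469 genes (3.64%) and lower for 716 (5.56%), with 275 and 601 of them differing by at least 2-fold. The genes whose Treg effect was lower included the Treg surface gene Gpr83, the receptor-response genes Nr4a1 and Egr2, and the naive-cell genes Tcf7, Ccr7 and Bach2. Those whose effect was higher included the cytokine receptors Il7r and Il9r, the chemokine receptor Ccr2 and the transcription factors Maf, Gata3 and Rora. Calls went both ways among naive-cell genes: of 24, 8 were lower and 5 higher, Il7r among the latter. Of 28 receptor-response genes 11 were lower and 2 (Cd69 and Klf6) higher. Within the same fit, 3143 genes (24.4%) had a called Treg effect in monoclonal mice and 1018 (7.90%) in polyclonal mice. At an unadjusted p under 0.05 there were 3054 genes (23.7%), and the median difference over all genes was -0.03.

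The direction split depends on what the libraries are scaled to. Cd3d, Cd3e, Cd3g and Cd247 together reached 1992 and 2006 CPM (Treg) and 1470 and 1230 CPM (non-Treg) in monoclonal mice and 1587 and 2235 CPM (Treg) and 1887 and 1928 CPM (non-Treg) in polyclonal mice. Scaling to this sum moved the median of all genes by -0.55. Of the genes called in that setting, 85 were higher and 1624 lower, which is 4.97% higher against 39.6% with the deposited scale. All 716 lower genes stayed called lower, 85 of the 469 higher genes stayed called higher, and 6 called genes changed sign. Such scaling divides each library by 1 factor and moves nearly all genes by a like amount. That none of the 1185 genes changed sign relative to the shift of the median therefore follows from the scaling and is no support. Leaving out 1 non-Treg library lowered the count: it was 621 without monoclonal non-Treg A, 395 without monoclonal non-Treg B, 550 without polyclonal non-Treg A and 495 without polyclonal non-Treg B. Without polyclonal Treg B it was 1663, of which 772 were higher. In the fits that left out each library in turn, 340 genes were called in all 8 (115 higher and 225 lower). Adding the other 10 alternatives left 239 genes called throughout (49 higher and 190 lower). Results are called robust below where the gene is among those 239. CD3 scaling is 1 of these alternatives and kept all 716 lower but 85 of the 469 higher genes. The label therefore favours lower genes, and its split by direction is no result.

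**Figure D2:**
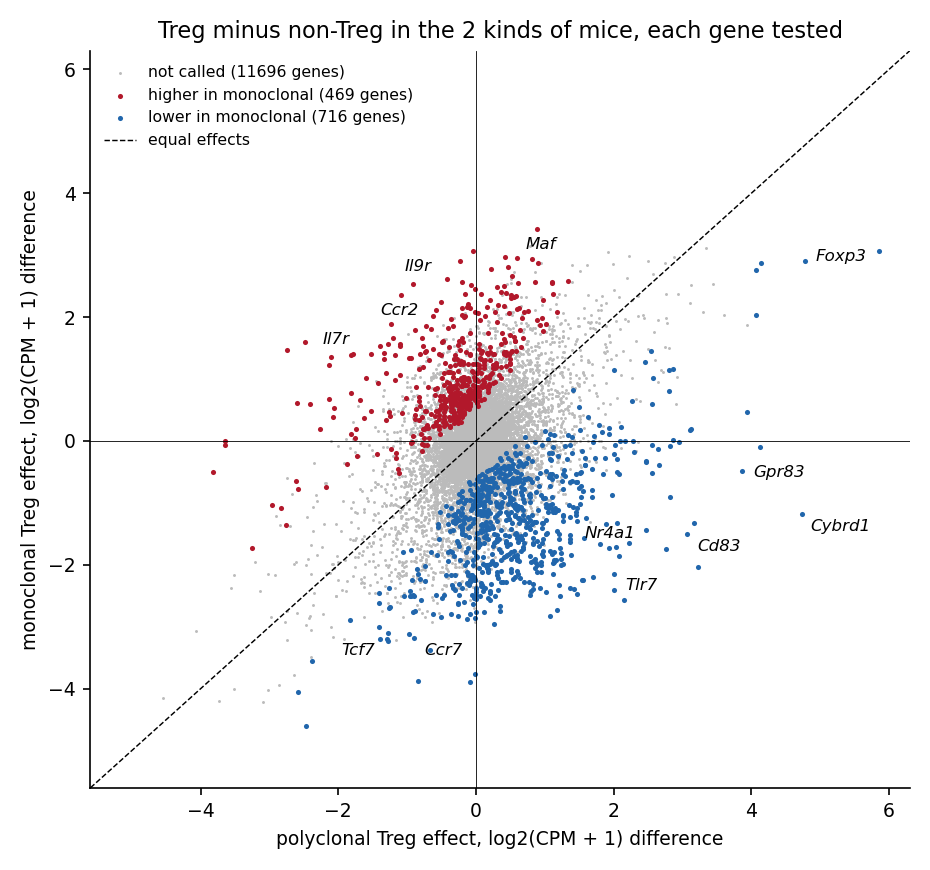
Treg effect in polyclonal mice (x axis) and in monoclonal mice (y axis), both as differences of mean log2(CPM + 1) between 2 Treg and 2 non-Treg libraries, for 12881 genes. Genes above the dashed line of equal effects had a higher Treg effect in monoclonal mice (469 called) and genes under it a lower one (716 called). Il7r lies at 1.36 on the y axis and -2.11 on the x axis.

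Most of the called genes had a Treg effect that passed the threshold in monoclonal mice alone. That held for 795 genes, of which 322 rose and 473 fell in monoclonal Treg cells. Another 154 genes had a called effect in polyclonal mice alone: 59 fell in polyclonal Treg cells and had a higher difference, and 95 rose there and had a lower one. For 89 genes both effects were called in opposite directions, 23 of them rising in monoclonal and falling in polyclonal Treg cells and 66 doing the reverse. Both effects had the same direction for 79 genes, larger in monoclonal mice for 58 and larger in polyclonal mice for 21. Neither effect was called for 68. Leaving out 1 library moved these counts. The opposite-direction count was 49 and 35 without monoclonal non-Treg A or B, 34 and 35 without polyclonal non-Treg A or B, and 136 and 140 without polyclonal Treg A or B. Without monoclonal non-Treg A or B, and without polyclonal non-Treg A or B, the monoclonal-only count was 396, 212, 401 and 350. The polyclonal-only count was 94 without monoclonal non-Treg B, 68 without polyclonal non-Treg A and 63 without polyclonal non-Treg B. The 58 genes with a larger effect of the same direction in monoclonal mice became 28 and 19 without monoclonal non-Treg A or B and 12 and 13 without polyclonal non-Treg A or B. The 21 with a larger one in polyclonal mice became 13 without monoclonal Treg B, 6 and 12 without monoclonal non-Treg A or B, 35 and 34 without polyclonal Treg A or B, and 12 without polyclonal non-Treg A. The 68 with neither effect called became 37 and 23 without monoclonal non-Treg A or B, 121 without polyclonal Treg B, and 23 and 20 without polyclonal non-Treg A or B.

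**Figure D3:**
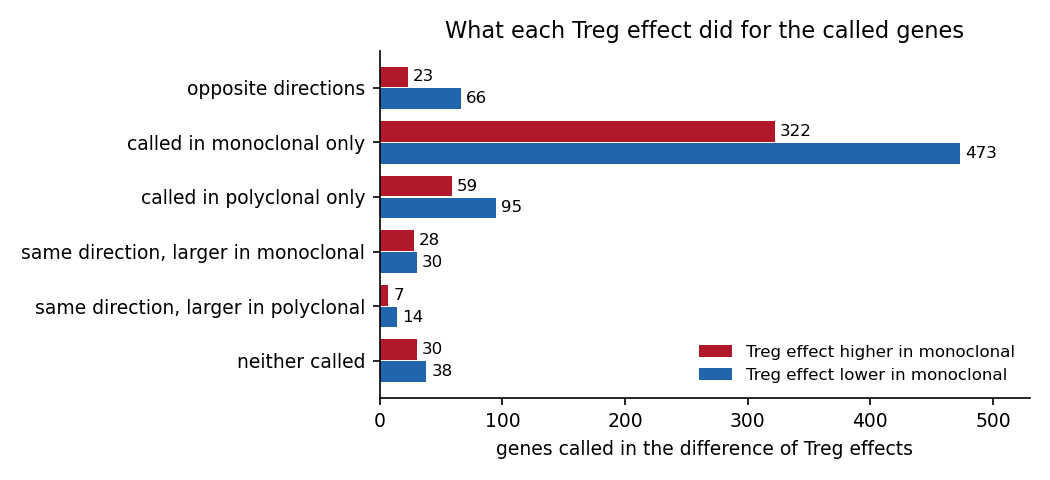
Number of called genes (x axis) by what the 2 Treg effects did (y axis), split into genes with a higher and with a lower Treg effect in monoclonal mice. The largest class is the 795 genes called in monoclonal mice only, 322 higher and 473 lower.

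The difference equals the monoclonal minus polyclonal gap of Treg cells minus that of non-Treg cells, so it can come from either side. Choosing genes by it raises the shares below over those of all genes, which are given for scale only. Among the 716 lower genes, 389 (54.3%) were at least 2-fold higher in the non-Treg cells of monoclonal mice than in those of polyclonal mice, which held for 11.2% of all genes tested. Of the same 716 genes, 214 (29.9%) were at least 2-fold lower in monoclonal than in polyclonal Treg cells (6.92% of all genes). Among the 469 higher genes the Treg side moved more often: 160 (34.1%) were at least 2-fold higher in monoclonal Treg cells (9.68% of all genes), and 63 (13.4%) at least 2-fold lower in monoclonal non-Treg cells (2.82% of all genes). The non-Treg part was the larger of the 2 for 450 lower genes (62.8%) and 169 higher genes (36%). For 35 of the 716 lower and 5 of the 469 higher genes all 4 polyclonal libraries were under 1 CPM, as for 631 of the 12881 genes tested. The difference there is a monoclonal Treg effect alone. All 4 monoclonal libraries were under 1 CPM for 6 lower and 2 higher genes and for 160 of the 12881. The part of antigen-presenting cell transcripts in the non-Treg side was not tested.

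Foxp3 itself (X:7156802-7172369 in mm9) was 2709 and 2667 CPM (Treg) and 405 and 319 CPM (non-Treg) in monoclonal mice and 2349 and 2281 CPM (Treg) and 81.9 and 84.2 CPM (non-Treg) in polyclonal mice. The 2 Treg groups lay close together, and the monoclonal non-Treg libraries lay above the polyclonal ones. Foxp3 rose 7.46-fold in monoclonal and 27.6-fold in polyclonal Treg cells, a difference of -1.89 ± 0.17 (SE, log2). The reporter sorted the cells, so this value describes the sort and is no finding. The part of the higher Foxp3 level of reporter-negative monoclonal cells in the other differences was not tested.

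The gene lists here and below were chosen with earlier results of these data known. Their shares beside those of all genes are therefore descriptive and no independent test. Among 32 Treg identity genes, 10 had a lower (31.2%) and 3 a higher (9.38%) Treg effect in monoclonal mice, and 19 were not called. Over all genes these shares were 5.56% and 3.64%. Foxp3, whose reporter sorted the cells, is counted in this list and among the 10 and is no finding. The median difference of the list was -0.48, against -0.03 over all genes. The Treg effect itself was called in the upward direction for 27 of the 32 in monoclonal and all 32 in polyclonal mice. Gpr83 (9:14664698-14673943), an orphan G protein-coupled receptor of Treg cells, was 22.3 and 8.64 CPM (Treg) and 25.3 and 15.5 CPM (non-Treg) in monoclonal mice and 214 and 228 CPM (Treg) and 14.8 and 13.6 CPM (non-Treg) in polyclonal mice. Of the 4 groups, polyclonal Treg was the high one, and the monoclonal Treg range overlapped both non-Treg groups. The Treg effect was 14.6-fold in polyclonal mice and not called in monoclonal mice, a difference of -4.35 ± 0.47 (adjusted p = 8.49e-05).

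Ikzf4, which encodes the Foxp3 partner Eos, reached 79 and 70.6 CPM (Treg) and 18.1 and 17 CPM (non-Treg) in monoclonal mice and 254 and 242 CPM (Treg) and 15.1 and 12.9 CPM (non-Treg) in polyclonal mice. It rose in both kinds of Treg cells, 4.08-fold and 16.6-fold, and differed by -2.03 ± 0.25 (adjusted p = 0.000183). Entpd1, the ectoenzyme CD39, was 39 and 40.8 CPM (Treg) and 49.3 and 68.8 CPM (non-Treg) in monoclonal and 43.5 and 55.9 CPM (Treg) and 16.8 and 18 CPM (non-Treg) in polyclonal mice. Its Treg levels were close and its non-Treg levels apart, with a difference of -1.99 ± 0.30 (adjusted p = 0.00106). Swap70, a guanine nucleotide exchange factor for Rac, differed by -1.94 ± 0.26 and Arhgap20 by -3.48 ± 0.65. Arhgap20 was 59.2 and 44.9 CPM in Treg libraries of polyclonal mice and at most 5.42 CPM in the others. These 5 genes and Cd83 were robust, as was Foxp3, whose value describes the sort.

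Il2ra, the α chain of the IL-2 receptor, was 566 and 461 CPM (Treg) and 93.3 and 50.1 CPM (non-Treg) in monoclonal mice and 896 and 788 CPM (Treg) and 45.8 and 48 CPM (non-Treg) in polyclonal mice. Its difference of -1.25 ± 0.30 (adjusted p = 0.0188) lost the call without monoclonal Treg B, monoclonal non-Treg A or any 1 of the 4 polyclonal libraries, with adjusted p between 0.0595 and 0.119. Lrrc32, which presents latent TGF-β on Treg cells, was 17 and 15.9 CPM in monoclonal and 235 and 234 in polyclonal Treg libraries. Its difference of -2.80 ± 0.70 was not called by edgeR (adjusted p = 0.174) or DESeq2 (adjusted p = 0.424). Its non-Treg levels were low, at 2.88 and 0.129 CPM in monoclonal and 5.25 and 1.61 CPM in polyclonal mice. Without monoclonal Treg B, monoclonal non-Treg A, polyclonal Treg A or polyclonal non-Treg B, the adjusted p for Lrrc32 was 0.0683, 0.092, 0.0508 and 0.108. Ebi3, an IL-35 subunit, was also lower (-1.61 ± 0.41, adjusted p = 0.0232), but not without monoclonal non-Treg A (0.0516), monoclonal non-Treg B (0.161) or polyclonal non-Treg A (0.12).

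Most of the best known Treg genes were not called. Ctla4, an inhibitory receptor, was 676 and 760 CPM in monoclonal and 632 and 591 CPM in polyclonal Treg libraries, and its difference was 0.40 ± 0.18 (adjusted p = 0.206). Ikzf2, which encodes Helios, differed by 0.13 ± 0.19, Nrp1 by 0.24 ± 0.24, Tnfrsf4 (OX40) by 0.12 ± 0.28 and Il2rb by 0.19 ± 0.22, with adjusted p between 0.606 and 0.841. Klrg1, a lectin-like receptor of activated Treg cells, differed in level between the Treg groups without a called difference of effects. It was 552 and 550 CPM in the Treg libraries of monoclonal mice and 26.6 and 37.6 CPM in those of polyclonal mice, but rose by 3.12 and 3.34 on the log2 scale, a difference of -0.22 ± 0.39 (adjusted p = 0.786). Nt5e, the ectoenzyme CD73, rose more in monoclonal mice (1.46 ± 0.23, adjusted p = 0.00141), as did the costimulator Icos (0.98 ± 0.18) and the prostaglandin receptor Ptger4 (0.87 ± 0.22). Scaling to the CD3 genes ended these 3 calls, at adjusted p of 0.0807, 0.418 and 0.516. Ptger4 was also not called without monoclonal Treg A (0.0529), monoclonal non-Treg B (0.15), polyclonal non-Treg A (0.103) or polyclonal non-Treg B (0.102).

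**Figure D4:**
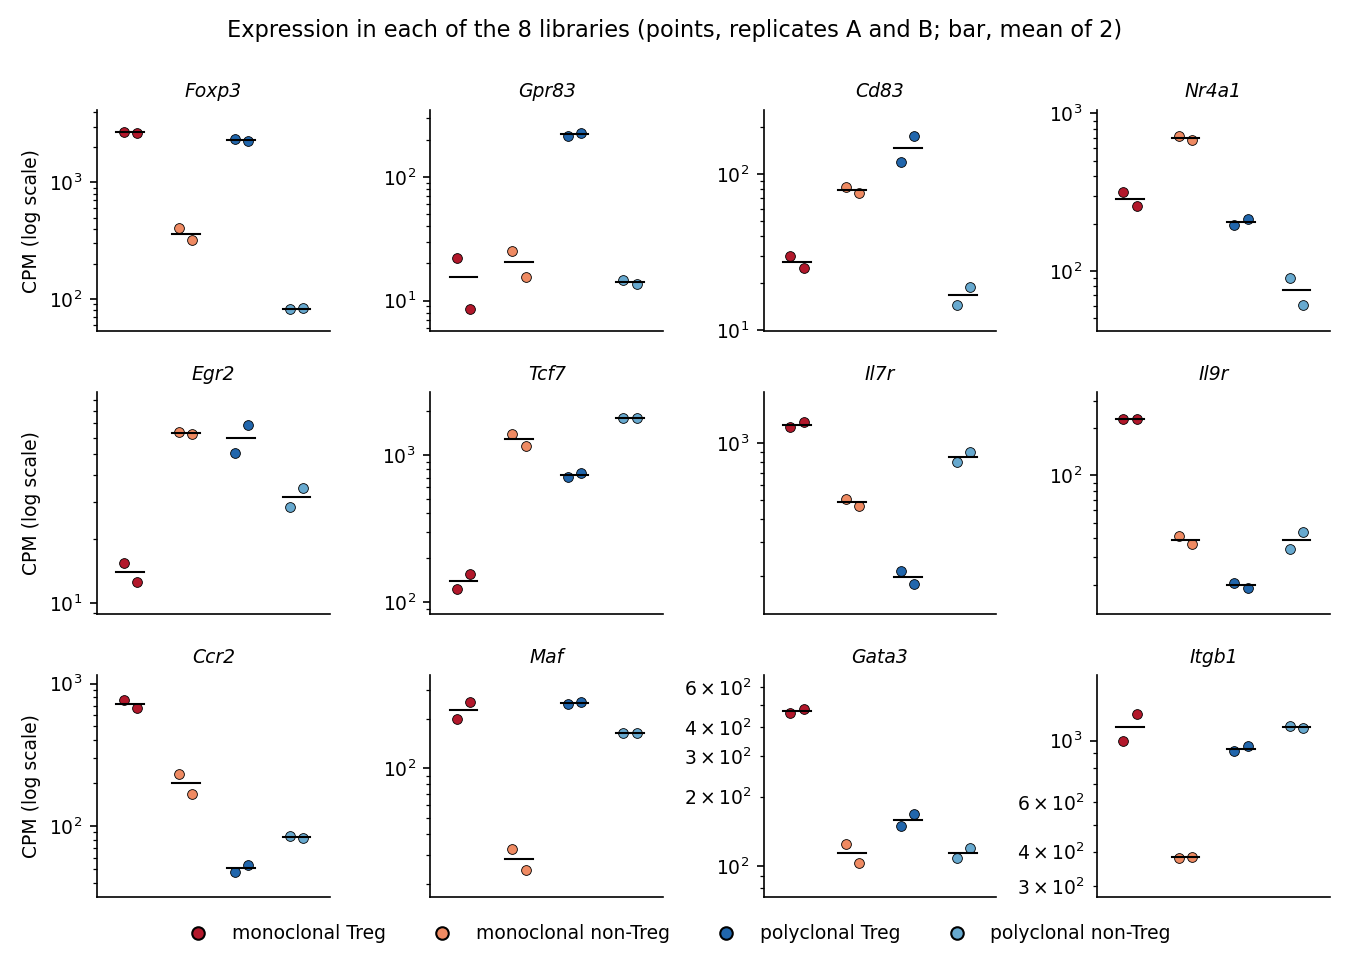
CPM of 12 genes in each of the 8 libraries, on a log axis that differs between panels, with a bar at the mean of the 2 libraries of a group. For Il7r the order of Treg and non-Treg is reversed between the 2 kinds of mice, from 1212 and 1293 against 511 and 464 CPM to 212 and 180 against 792 and 903 CPM.

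The opposite-direction genes included several cytokine receptors. Il7r (15:9435914-9459631), the α chain of the IL-7 receptor, was 1212 and 1293 CPM (Treg) and 511 and 464 CPM (non-Treg) in monoclonal mice and 212 and 180 CPM (Treg) and 792 and 903 CPM (non-Treg) in polyclonal mice. All 4 groups were separate, and Treg cells were the higher of the pair in monoclonal mice and the lower in polyclonal mice. Il7r rose 2.57-fold in monoclonal Treg cells and fell 4.31-fold in polyclonal ones, a difference of 3.47 ± 0.17 (adjusted p = 1.39e-07). Il9r (11:32088997-32100279), the IL-9 receptor, was 230 and 230 CPM (Treg) and 41 and 36.4 CPM (non-Treg) in monoclonal mice and 20.7 and 19.2 CPM (Treg) and 34.1 and 43.4 CPM (non-Treg) in polyclonal mice. The 2 non-Treg groups overlapped and the Treg groups lay on either side of them, with a difference of 3.46 ± 0.25 (adjusted p = 4.63e-06).

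Il18rap, a chain of the IL-18 receptor, followed with 195 and 242 CPM (Treg) and 85.2 and 85.8 CPM (non-Treg) in monoclonal mice and 63.3 and 63.5 CPM (Treg) and 127 and 117 CPM (non-Treg) in polyclonal mice (difference 2.27 ± 0.20, adjusted p = 1.96e-05). Il17rb, the receptor for IL-25, did the same at lower levels: 16.3 and 24.8 CPM (Treg) and 10.4 and 6.13 CPM (non-Treg) in monoclonal and 7.6 and 3.65 CPM (Treg) and 28.2 and 25.2 CPM (non-Treg) in polyclonal mice (3.36 ± 0.51, adjusted p = 0.00112). Mtus1, which encodes a microtubule-associated protein, had a higher difference still (4.21 ± 0.54, adjusted p = 0.000279). It was 12.8 and 15.9 CPM against 5.21 and 3.93 in monoclonal cells and 1.07 and 3.14 against 19.7 and 17.7 in polyclonal cells. Esm1, a secreted proteoglycan, differed by 2.93 ± 0.58, with no library above 11.1 CPM. All these genes were robust. Il4ra moved the other way (-0.88 ± 0.19, adjusted p = 0.011), without the call when monoclonal Treg B (adjusted p = 0.0544), monoclonal non-Treg A (0.0756) or polyclonal non-Treg B (0.0819) was left out.

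Opposite directions with a lower difference were seen for Cd83 (13:43880481-43898502), a surface protein of activated lymphocytes and dendritic cells. Cd83 was 29.7 and 24.8 CPM (Treg) and 82.6 and 75.6 CPM (non-Treg) in monoclonal mice and 120 and 176 CPM (Treg) and 14.4 and 18.9 CPM (non-Treg) in polyclonal mice. It fell 2.84-fold in monoclonal and rose 8.37-fold in polyclonal Treg cells, a difference of -4.57 ± 0.30 (adjusted p = 1.83e-06). Bcl2, which protects against cell death, was 97.6 and 93.2 CPM (Treg) and 310 and 263 CPM (non-Treg) in monoclonal and 497 and 385 CPM (Treg) and 225 and 270 CPM (non-Treg) in polyclonal mice. The non-Treg groups overlapped and the Treg groups did not, and the difference was -2.40 ± 0.21 (adjusted p = 1.96e-05). Gucy1a3, a soluble guanylate cyclase subunit, had 0 reads in both monoclonal Treg libraries against 5.93 and 4.06 CPM in their non-Treg partners, and it reached 31.5 and 25.9 CPM (Treg) and 4.68 and 6.78 CPM (non-Treg) in polyclonal mice. Against 3 reads per library this is at least 27.3-fold lower in Treg than in non-Treg cells of monoclonal mice (fitted difference -4.72, adjusted p = 0.000104).

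The other large differences of this kind were in genes with mixed roles. Pla2g4f, a cytosolic phospholipase, was 79.7 and 72.3 CPM in Treg libraries of polyclonal mice and no more than 14 CPM elsewhere (-4.49 ± 0.51). Ryr2, a calcium release channel, was 2.56 and 6.44 CPM (Treg) and 12.9 and 12.8 CPM (non-Treg) in monoclonal mice and 131 and 109 CPM (Treg) and 25.3 and 16.9 CPM (non-Treg) in polyclonal mice (-3.90 ± 0.46). Zfp608, a zinc finger gene, differed by -4.50 ± 0.52, Igsf3, an immunoglobulin superfamily gene, by -4.41 ± 0.61 and Cdhr3, a cadherin family member, by -5.26 ± 0.52. Tlr7, an endosomal sensor of RNA, was 32.1 and 16.4 CPM (Treg) and 96.1 and 115 CPM (non-Treg) in monoclonal mice and 29.6 and 38.5 CPM (Treg) and 9.37 and 6.2 CPM (non-Treg) in polyclonal mice (-4.15 ± 0.42). Its highest libraries were the monoclonal non-Treg ones, which also held the most MHC class II, dendritic cell and macrophage transcripts, and the same was true of Rasgef1b (-3.92 ± 0.47, 80.9 and 73.2 CPM there). The part of those transcripts was not tested. All 7 genes were robust, at adjusted p between 4.08e-05 and 0.000538.

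Of 29 effector-memory genes, 16 were called higher in monoclonal mice and 1 (Icam1) lower, against 3.64% and 5.56% of all genes. This list too was chosen with earlier results known, so the shares are descriptive. The median difference of the list was 1.24. The 29 genes had a median Treg effect of 0.87 in monoclonal and -0.23 in polyclonal mice. Ccr2 (9:124016922-124023879), a receptor for monocyte chemoattractant proteins, was 769 and 673 CPM (Treg) and 232 and 169 CPM (non-Treg) in monoclonal mice and 47.5 and 53 CPM (Treg) and 84.4 and 82.1 CPM (non-Treg) in polyclonal mice. It rose 3.62-fold in monoclonal and fell 1.65-fold in polyclonal Treg cells, a difference of 2.57 ± 0.22 (adjusted p = 1.88e-05). Monocytes also carry Ccr2, and macrophage and monocyte markers summed higher in the monoclonal non-Treg (669 and 747 CPM) than in the monoclonal Treg libraries (423 and 297 CPM). The part of their transcripts in the Ccr2 difference was not tested.

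Maf (8:118227153-118230794), a transcription factor of IL-10-producing and follicular T cells, was 198 and 252 CPM (Treg) and 32.2 and 24.3 CPM (non-Treg) in monoclonal mice and 247 and 251 CPM (Treg) and 163 and 164 CPM (non-Treg) in polyclonal mice. The monoclonal non-Treg libraries stood apart on the low side, and the other 3 groups were within a narrower range. The difference was 2.35 ± 0.22 (adjusted p = 3.02e-05). Itgb1, the integrin β1 chain, had the same shape, with 997 and 1245 CPM (Treg) and 380 and 382 CPM (non-Treg) in monoclonal and 915 and 958 CPM (Treg) and 1128 and 1110 CPM (non-Treg) in polyclonal mice (1.8 ± 0.17, adjusted p = 2.64e-05). Lgals3, a galectin, was instead set apart by the polyclonal Treg libraries, at 3.91 and 8.32 CPM against 30.3 to 94.1 CPM in the other 6 (2.46 ± 0.37, adjusted p = 0.0011). S100a6, a calcium-binding protein, was highest in Treg libraries of monoclonal mice, at 391 and 323 CPM against 41.2 to 125 CPM elsewhere (1.79 ± 0.29, adjusted p = 0.00179).

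These 5 effector-memory genes were robust. For the other 11 higher members, among them Cd44, Prdm1, Id2 and Vim, the difference lay between 0.89 (Cd44) and 1.75 (Anxa1). Without any 1 of the 4 non-Treg libraries Cd44, Prdm1 and Anxa1 were not called, at adjusted p between 0.0529 and 0.202. Cd44 was also not called without monoclonal Treg B (0.0505) and Anxa1 not without monoclonal Treg A (0.0891). The count of higher members was 6 with scaling to the CD3 genes, 6 without the trend and robust spread and 10 without monoclonal non-Treg B. Id2, an inhibitor of E proteins, fell in both kinds of Treg cells, by 0.75 in monoclonal and by 2.18 in polyclonal mice, so its higher difference (1.43 ± 0.25, adjusted p = 0.00293) was a smaller fall. Its adjusted p was 0.0895 when scaled to the CD3 genes.

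Trafficking receptors had calls in both directions. Of 24 genes, 10 were called higher (41.7%, against 3.64% of all genes) and 3 lower (12.5%, against 5.56%), with a median difference of 0.89. Besides Ccr2, Cxcr3 and Itgb1, the higher ones were Ccr3, Ccr4, Cxcr4, S1pr1, S1pr4, Itga4 and Itgb7, and the lower ones included the lymph node homing gene Ccr7 and Ccr6. Leaving out 1 library ended 4 of these calls. Ccr3 was lost without monoclonal non-Treg B (adjusted p = 0.0771) or polyclonal non-Treg A (0.056), Ccr6 without monoclonal non-Treg B (0.0763) or polyclonal non-Treg B (0.0613), and Cxcr4 without polyclonal Treg A (0.0511). Itgb7 was lost without monoclonal Treg B (0.0505), monoclonal non-Treg B (0.0784), polyclonal non-Treg A (0.0551) or polyclonal non-Treg B (0.0708). Ccr4, a chemokine receptor of skin-homing and Treg cells, was 146 and 130 CPM (Treg) and 26.3 and 24.4 CPM (non-Treg) in monoclonal and 62.1 and 70.8 CPM (Treg) and 48.9 and 53.3 CPM (non-Treg) in polyclonal mice (2.03 ± 0.23, adjusted p = 0.000104). S1pr4, a sphingosine-1-phosphate receptor, was 456 and 469 CPM in Treg libraries of monoclonal mice and 147 to 226 CPM elsewhere (1.70 ± 0.23, adjusted p = 0.000508). S1pr1, the receptor for exit from lymphoid organs, rose by 0.51 in monoclonal and fell by 0.52 in polyclonal Treg cells (1.03 ± 0.15, adjusted p = 0.000924). With scaling to the CD3 genes S1pr1 lost the call (adjusted p = 0.331), and the list's counts became 6 higher and 7 lower.

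Helper-lineage regulators were divided. Gata3, the Th2 regulator, was 464 and 481 CPM in Treg libraries of monoclonal mice and 103 to 168 CPM in the other 6, with no overlap. It rose 4.16-fold in monoclonal and 1.39-fold in polyclonal Treg cells (1.58 ± 0.19, adjusted p = 0.000174). Rora, a nuclear receptor of Th17 and type 2 cells, was 457 and 513 CPM (Treg) and 88.6 and 80.9 CPM (non-Treg) in monoclonal mice and 174 and 108 CPM (Treg) and 114 and 93.9 CPM (non-Treg) in polyclonal mice (2.10 ± 0.27, adjusted p = 0.000251). Ahr, a ligand-activated factor of Th17 cells, was lower (-1.73 ± 0.33, adjusted p = 0.00501): it was 58 and 63.9 CPM in the non-Treg libraries of monoclonal and 16.3 and 19.7 CPM in those of polyclonal mice, and overlapped between the Treg groups. The follicular helper factor Bcl6 was lower as well (-1.47 ± 0.25, adjusted p = 0.00259). Gata3, Rora, Ahr, Bcl6, Ccr4 and S1pr4 were robust. Over all genes tested, 3.64% were higher and 5.56% lower. Of the helper lists, Th1 had 4 of 12 higher and 0 lower by limma (1 lower at an unadjusted p under 0.05, 0 by edgeR and DESeq2). Th2 had 3 of 9 higher and 1 lower, Th17 1 of 8 higher and 3 lower, and follicular helper 3 of 11 higher and 2 lower. Lower Th17 members numbered 1 without monoclonal non-Treg B or polyclonal non-Treg B, and higher follicular helper members 1 without polyclonal non-Treg B. Il21, a follicular helper cytokine, was counted among the last, although it had 0 reads in all 4 monoclonal libraries, so that its difference (3.65) is a polyclonal effect alone, from 19.9 and 22.5 CPM in non-Treg to 0.995 and 0.558 CPM in Treg libraries. The count tests did not call it (adjusted p = 1 by edgeR and 0.179 by DESeq2).

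Genes of naive and quiescent T cells were called in both directions: of 24 such genes 8 were lower (33.3%, against 5.56% of all genes), 5 higher (20.8%, against 3.64%) and 11 not called. The median difference of the list was -0.11, and its median Treg effect was -0.42 in monoclonal and -0.40 in polyclonal mice. Without polyclonal Treg A the count of higher members was 8, and with scaling to the CD3 genes it was 1. Among 18 genes known to be repressed in Treg cells 5 were lower and 2 higher. Tcf7 (11:52066106-52095752), which encodes TCF-1, was 123 and 154 CPM (Treg) and 1389 and 1154 CPM (non-Treg) in monoclonal mice and 709 and 747 CPM (Treg) and 1787 and 1784 CPM (non-Treg) in polyclonal mice. No groups overlapped. It fell 9.15-fold in monoclonal and 2.45-fold in polyclonal Treg cells, a difference of -1.90 ± 0.18 (adjusted p = 3.52e-05). Ccr7 (11:99005513-99016391) was 36.5 and 42.9 CPM (Treg) and 409 and 330 CPM (non-Treg) in monoclonal and 182 and 265 CPM (Treg) and 400 and 419 CPM (non-Treg) in polyclonal mice. The 2 non-Treg groups overlapped, and the difference was -2.29 ± 0.24 (adjusted p = 6.7e-05).

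Bach2, a repressor of effector programmes, was lowest in Treg libraries of monoclonal mice, at 14.5 and 25.9 CPM against 134 to 210 CPM elsewhere (-2.71 ± 0.31, adjusted p = 0.0001). Satb1, a chromatin organiser, fell by 2.76 in monoclonal and by 0.91 in polyclonal mice on the log2 scale (-1.85 ± 0.21, adjusted p = 9.25e-05), and the actin cross-linker Actn1 by 2.50 and 0.96 (-1.54 ± 0.23, adjusted p = 0.001). Tcf7, Ccr7, Bach2, Satb1 and Actn1 were robust. Lef1, the partner of Tcf7, fell by 1.10 in monoclonal and by 1.08 in polyclonal Treg cells, a difference of -0.02 ± 0.18 (adjusted p = 0.957). Higher among the naive-cell genes were Il7r, S1pr1, Klf2, Gimap4 and Gimap6, and with scaling to the CD3 genes Il7r alone of these kept its call. In the fits without 1 library, Gimap6 lost its call without monoclonal non-Treg B (adjusted p = 0.0922), polyclonal non-Treg A (0.0729) or polyclonal non-Treg B (0.0698).

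**Figure D5:**
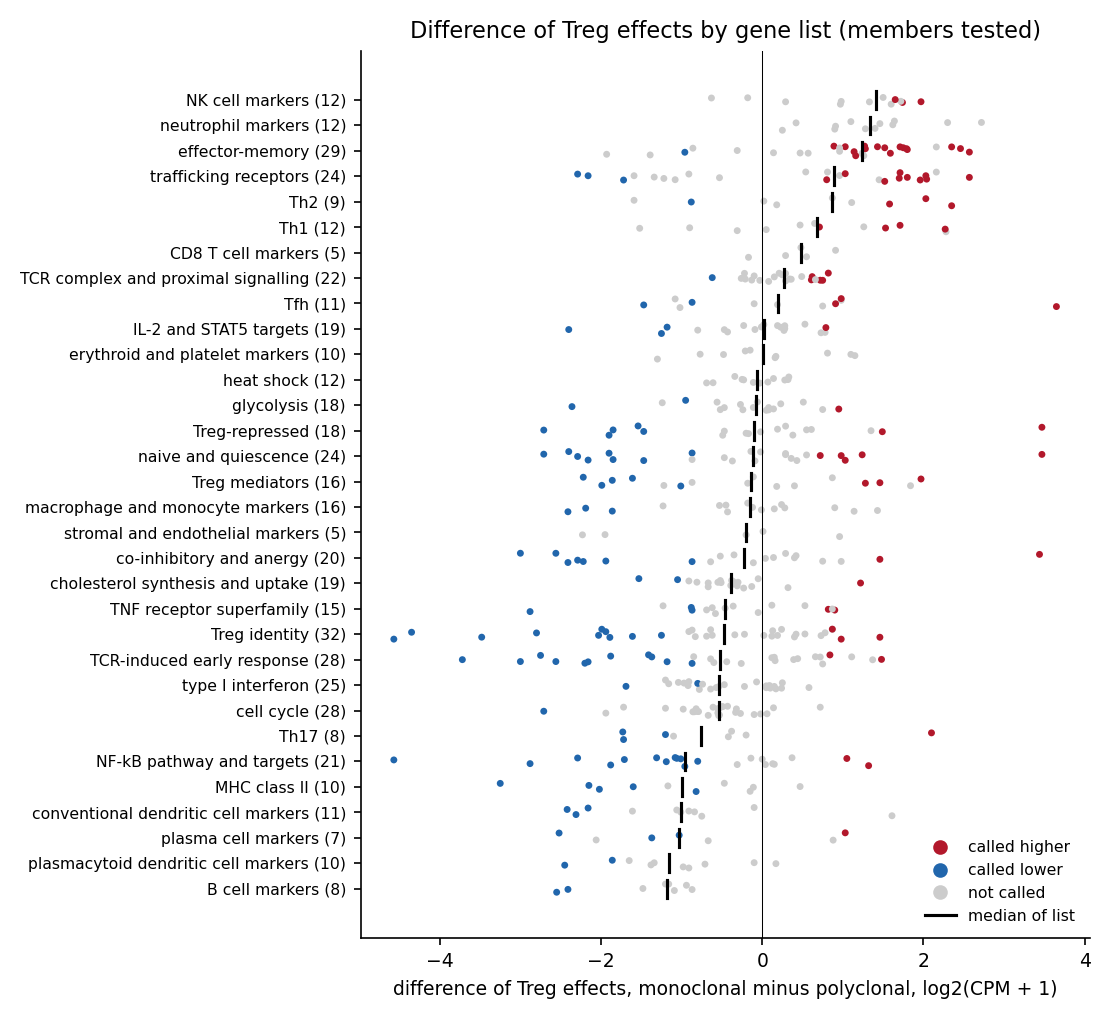
Difference of Treg effects (x axis, log2 scale) of each tested member of 32 gene lists, ordered by the median of the list (black bar). Effector-memory genes have a median of 1.24 with 16 of 29 called higher, and NF-κB genes one of -0.96 with 12 of 21 called lower.

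Among 28 early response genes of the T cell receptor, 11 had a lower Treg effect in monoclonal mice (39.3%, against 5.56% of all genes). Higher were 2 (Cd69 and Klf6, 7.14%, against 3.64%), and the median difference was -0.52. Klf6 lost its call without monoclonal Treg B or any 1 of the 4 non-Treg libraries (adjusted p between 0.0511 and 0.0725). The median Treg effect of the list was -0.24 in monoclonal and 0.25 in polyclonal mice. Nr4a1 (15:101097277-101105225), an orphan nuclear receptor that reports receptor signalling, was 315 and 257 CPM (Treg) and 718 and 678 CPM (non-Treg) in monoclonal mice and 197 and 215 CPM (Treg) and 90.1 and 60.8 CPM (non-Treg) in polyclonal mice. Monoclonal non-Treg cells were the highest group, and the order of Treg and non-Treg was reversed between the mice. Nr4a1 fell 2.45-fold in monoclonal and rose 2.76-fold in polyclonal Treg cells, a difference of -2.75 ± 0.24 (adjusted p = 1.88e-05). Its relative Nr4a3 was at 0.197 and 0.0565 CPM (Treg) and 5.1 and 5.61 CPM (non-Treg) in monoclonal mice and 20.4 and 27.8 CPM (Treg) and 9.81 and 9.49 CPM (non-Treg) in polyclonal mice (-3.72 ± 0.50, adjusted p = 0.000449).

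Egr2 (10:67000617-67004936), a zinc finger factor of receptor signalling and anergy, was 15.4 and 12.6 CPM (Treg) and 63.7 and 62.7 CPM (non-Treg) in monoclonal and 50.8 and 69.1 CPM (Treg) and 28.4 and 34.8 CPM (non-Treg) in polyclonal mice. Monoclonal Treg cells were the low group, and the difference was -3.0 ± 0.30 (adjusted p = 4.71e-05). Egr3 was 12 and 16.7 CPM in Treg libraries of monoclonal mice and 49.3 to 79.8 CPM elsewhere (-2.56 ± 0.28, adjusted p = 8.89e-05). Egr1 differed in shape, because both monoclonal groups were above both polyclonal groups. It was 503 and 464 CPM (Treg) and 1739 and 1640 CPM (non-Treg) in monoclonal mice against 90.6 to 147 CPM in the polyclonal libraries (-2.16 ± 0.20, adjusted p = 2.64e-05). Myc (-1.18 ± 0.21) and the plasma and effector cell factor Irf4 (-1.37 ± 0.22) were lower too, at adjusted p of 0.00331 and 0.00197. All of these were robust.

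Fosb, a partner of Jun, fell in both kinds of Treg cells, by 2.23 in monoclonal and by 0.82 in polyclonal mice on the log2 scale. It was 208 and 232 CPM (Treg) and 923 and 1167 CPM (non-Treg) in monoclonal mice and 19.3 and 12.9 CPM (Treg) and 31.1 and 26.3 CPM (non-Treg) in polyclonal mice. Its difference of -1.41 ± 0.26 (adjusted p = 0.00404) was not called without monoclonal non-Treg B (0.0576). Dusp1, a phosphatase of MAP kinases, was also lower (-0.87 ± 0.24, adjusted p = 0.0349), but its adjusted p was between 0.0779 and 0.196 without monoclonal Treg A or any 1 of the 4 non-Treg libraries. Fos fell in both kinds of Treg cells, by 1.44 and by 0.79, with a difference of -0.64 ± 0.24 (adjusted p = 0.116), and Jun differed by -0.85 ± 0.44 (adjusted p = 0.273). Cd69, an early activation antigen, rose in monoclonal Treg cells, with 126 and 168 CPM against 62.4 and 47.8 CPM in their non-Treg partners, and was 75.6 and 79.4 CPM (Treg) and 80.4 and 83.8 CPM (non-Treg) in polyclonal mice (1.48 ± 0.25, adjusted p = 0.00208). With scaling to the CD3 genes its adjusted p was 0.0762. Cd5, whose level follows receptor signal strength, differed by 0.15 ± 0.17 (adjusted p = 0.657). Atf3 was lower (-2.20 ± 0.50) with 141 and 257 CPM in non-Treg libraries of monoclonal mice, but was 0.152 to 0.258 CPM in the polyclonal libraries, and the count tests did not call it (adjusted p = 0.333 by edgeR and 0.185 by DESeq2). It also lost the call without monoclonal non-Treg B (adjusted p = 0.163). Early response genes are expressed by antigen-presenting cells as well, and the part of those cells' transcripts, highest in the monoclonal non-Treg libraries, was not tested.

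The NF-κB subunits Rel, Relb, Nfkb1 and Nfkb2 had lower Treg effects in monoclonal mice, and Rela was not called. The inhibitors Nfkbia and Tnfaip3 had higher ones, whereas the inhibitor Nfkbie and the list member Bcl3 had lower ones. Bcl3 (-1.31) was not robust. In limma it lost its call without a filter (adjusted p = 0.124) and without trend and robust spread (0.163). NF-κB is a family of dimeric transcription factors (Rel, Rela, Relb, Nfkb1 and Nfkb2) held back by IκB proteins such as Nfkbia and Nfkbie. Its signalling is shut off by the ubiquitin-editing enzyme Tnfaip3 (A20), and both Nfkbia and Tnfaip3 are themselves NF-κB targets. Of 21 pathway and target genes, 12 had a lower (57.1%) and 2 a higher (9.52%) Treg effect in monoclonal mice, with a median difference of -0.96. Over all genes these shares were 5.56% and 3.64%. The Treg effect was called upward for 15 of the 21 in polyclonal mice, and in monoclonal mice for 5 upward and 6 downward.

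Rel (11:23641729-23670970), the subunit c-Rel needed to form Treg cells, was 30.6 and 37.4 CPM (Treg) and 77.7 and 80.7 CPM (non-Treg) in monoclonal mice and 78.9 and 67.6 CPM (Treg) and 48.7 and 42.1 CPM (non-Treg) in polyclonal mice. It fell 2.30-fold in monoclonal and rose 1.60-fold in polyclonal Treg cells, a difference of -1.88 ± 0.25 (adjusted p = 0.000362). Relb was 95.5 and 89 CPM (Treg) and 195 and 199 CPM (non-Treg) in monoclonal and 56.4 and 94.2 CPM (Treg) and 45.6 and 48.2 CPM (non-Treg) in polyclonal mice (-1.71 ± 0.28, adjusted p = 0.0017). Nfkb1 (-0.80 ± 0.16, adjusted p = 0.00669) and Nfkb2 (-1.01 ± 0.20, adjusted p = 0.00524) were lower by less. Both lost the call without monoclonal non-Treg B, at 0.0589 and 0.0533, and Nfkb1 also without polyclonal non-Treg B (0.0548). Rela lay between 163 and 211 CPM in all 8 libraries, with no called difference (-0.14 ± 0.18, adjusted p = 0.71).

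Tnfaip3 (10:18720717-18735216) was 1535 and 1662 CPM (Treg) and 415 and 390 CPM (non-Treg) in monoclonal mice and 255 and 240 CPM (Treg) and 187 and 129 CPM (non-Treg) in polyclonal mice. The groups did not overlap, and monoclonal Treg cells were the highest. Tnfaip3 rose 3.96-fold in monoclonal and 1.59-fold in polyclonal Treg cells (1.32 ± 0.21, adjusted p = 0.00176). Nfkbia followed, with 735 and 727 CPM (Treg) and 269 and 212 CPM (non-Treg) in monoclonal and 230 and 292 CPM (Treg) and 174 and 176 CPM (non-Treg) in polyclonal mice (1.05 ± 0.20, adjusted p = 0.00532). Scaling to the CD3 genes gave adjusted p of 0.173 and 0.292 for this pair, and a fit without trend and robust spread 0.0532 and 0.0774. Without monoclonal non-Treg B, Nfkbia had an adjusted p of 0.0556. Nfkbie, another inhibitor, was on the lower side (-1.06 ± 0.25, adjusted p = 0.0156), though not without monoclonal non-Treg B (0.124), polyclonal non-Treg A (0.0653) or polyclonal non-Treg B (0.076).

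Among target genes, the signalling adaptor Traf1 was 250 and 269 CPM (Treg) and 391 and 391 CPM (non-Treg) in monoclonal mice and 343 and 379 CPM (Treg) and 233 and 243 CPM (non-Treg) in polyclonal mice. Its order was reversed between the mice (-1.19 ± 0.16, adjusted p = 0.000479). Birc3, an inhibitor of cell death, differed by -1.08 ± 0.18 (adjusted p = 0.00217). Traf1, Birc3, Rel, Relb, Cd83 and Ccr7 were robust. The count of lower members was 7 without monoclonal non-Treg B and 7 without the trend and robust spread. Cd40, a receptor of antigen-presenting cells, was lower in this list (-2.88 ± 0.60, adjusted p = 0.0082) and highest in the monoclonal non-Treg libraries, at 27.1 and 30.9 CPM. Without monoclonal non-Treg B its adjusted p was 0.071. Relb and Cd83 are also expressed by dendritic cells, whose markers summed to 1880 and 2106 CPM in those libraries, and the part of these transcripts was not tested.

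The upstream sequences of 2 subunit genes with a lower and 2 inhibitor genes with a higher Treg effect are shown because matches to the κB consensus occur in both. Each is the 250 bases before a start site, 5′ to 3′ on the gene's strand, from RefSeq on GRCm38.p6, with matches to the κB consensus (searched on both strands) in capitals. In Tnfaip3 the AP-1 motif TGANTCA, which ends 4 bases before the first κB match, is also in capitals. The windows are chr19:46304487-46304736 (plus strand) for Nfkb2, chr11:23770970-23771219 (minus) for Rel, chr10:19015411-19015660 (minus) for Tnfaip3 and chr12:55492648-55492897 (minus) for Nfkbia.
Nfkb2: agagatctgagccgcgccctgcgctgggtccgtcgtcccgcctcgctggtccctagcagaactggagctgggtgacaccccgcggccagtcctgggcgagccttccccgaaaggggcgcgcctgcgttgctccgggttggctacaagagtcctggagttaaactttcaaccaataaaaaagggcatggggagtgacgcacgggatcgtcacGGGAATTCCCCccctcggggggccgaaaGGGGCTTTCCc
Rel: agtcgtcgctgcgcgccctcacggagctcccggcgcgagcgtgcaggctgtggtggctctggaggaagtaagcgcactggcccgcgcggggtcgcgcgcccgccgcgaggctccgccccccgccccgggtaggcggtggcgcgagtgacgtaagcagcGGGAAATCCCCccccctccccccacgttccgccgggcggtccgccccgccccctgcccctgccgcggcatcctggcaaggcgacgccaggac
Tnfaip3: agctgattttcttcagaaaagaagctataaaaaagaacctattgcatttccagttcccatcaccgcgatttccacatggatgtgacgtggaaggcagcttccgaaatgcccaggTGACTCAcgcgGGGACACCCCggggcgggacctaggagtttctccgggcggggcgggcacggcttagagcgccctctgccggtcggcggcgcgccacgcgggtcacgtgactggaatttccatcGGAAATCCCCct
Nfkbia: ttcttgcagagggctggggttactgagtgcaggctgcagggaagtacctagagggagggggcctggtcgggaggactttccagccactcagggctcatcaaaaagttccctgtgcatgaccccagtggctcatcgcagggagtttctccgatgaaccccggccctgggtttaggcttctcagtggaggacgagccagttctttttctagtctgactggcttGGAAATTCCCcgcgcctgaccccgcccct
Nfkb2 held κB matches at -39 to -30, -38 to -29 and -11 to -2, the first pair overlapping. Rel held overlapping matches at -92 to -83 and -91 to -82, Tnfaip3 at -125 to -116 and -12 to -3, and Nfkbia at -29 to -20. The table holds 3 windows for Nfkb2, of which the other 2 held κB matches at -236 to -227 and -225 to -216, and 2 for Tnfaip3, of which the other held none. For Rel and Nfkbia it holds 1 window each. A window was found for 9633 of the 12881 genes tested, and 5.52% of these genes held a match in at least 1 window. The share was 7.67% among 339 higher and 7.87% among 534 lower genes, so the motif did not separate the directions. Over all 32851 windows it was 3.9%. Of the 7 lower NF-κB pathway and target genes with a window, 3 held a match (Nfkb2, Nfkbie and Rel). A match describes the letters and not a bound site.

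Co-inhibitory and anergy genes were lower for 7 of 20 (35%, against 5.56% of all genes) and higher for 2 (10%, against 3.64%), with a median difference of -0.23. Without monoclonal non-Treg A, monoclonal non-Treg B or polyclonal non-Treg A the count of lower members was 4, 3 and 4. Havcr2, the receptor Tim-3, was 61.9 and 41.3 CPM (Treg) and 180 and 237 CPM (non-Treg) in monoclonal mice and 2.72 to 4.92 CPM in the polyclonal libraries (-2.29 ± 0.40, adjusted p = 0.00289). Dendritic cells and macrophages carry it too, and their part was not tested. Lag3 was lower (-2.22 ± 0.62, adjusted p = 0.0392), with 12.6 and 2.82 CPM in Treg libraries of monoclonal mice against 23.3 to 43.7 CPM elsewhere. Its call was lost without any 1 library except monoclonal Treg A, at adjusted p between 0.0699 and 0.156, and by edgeR (0.112). Rnf128, the anergy ligase GRAIL, was higher (3.44 ± 0.67, adjusted p = 0.00559), at 10.2 and 11.9 CPM in monoclonal Treg and at most 3.04 CPM elsewhere, but not by edgeR (0.064) or without monoclonal non-Treg B (0.0513). Pdcd1 and Tigit, 2 inhibitory receptors, differed by 0.98 ± 0.50 and 0.42 ± 0.30 (adjusted p of 0.258 and 0.439).

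For other programmes the shares called stand beside 9.20% of all genes. Of 28 cell cycle genes, 1 (E2f1, 3.57%) was lower and 0 higher by limma. At an unadjusted p under 0.05 the numbers were 10 lower and 0 higher, and edgeR and DESeq2 called 1 and 3 lower and 0 higher. The median difference of the 28 was -0.54, with 25 differences negative and 3 positive. In polyclonal Treg cells 9 of the 28 rose. E2f1, a factor for entry into S phase, was 2.83 and 2.99 CPM (Treg) and 15.6 and 15.9 CPM (non-Treg) in monoclonal mice and 8.31 and 10.8 CPM (Treg) and 6.96 and 4.97 CPM (non-Treg) in polyclonal mice (-2.71 ± 0.48, adjusted p = 0.00304). Mki67, a marker of dividing cells, was 297 and 230 CPM in Treg libraries of polyclonal mice and 92.8 to 154 CPM elsewhere, and just missed the threshold (-0.67 ± 0.20, adjusted p = 0.0549). Of 25 type I interferon genes 2 (8%) were lower and 0 higher (8 and 0 at an unadjusted p under 0.05, and again 2 and 0 by edgeR and DESeq2). Without either monoclonal non-Treg library or polyclonal non-Treg A no interferon gene was called, and without monoclonal Treg A 5 were. Of 18 glycolysis genes 2 were lower and 1 higher (16.7% called), and of 19 cholesterol genes 2 were lower and 1 higher (15.8%), with 0 cholesterol genes called without monoclonal non-Treg B or polyclonal non-Treg A. None of 12 heat shock genes was called by limma, edgeR or DESeq2, with 1 at an unadjusted p under 0.05. Scaling to the CD3 genes, which moved the median of all genes by -0.55, changed these counts. Lower calls then numbered 11 (cell cycle), 7 (interferon), 4 (glycolysis), 6 (cholesterol) and 1 (heat shock), and higher calls 0 in each. The median difference of the interferon list on the deposited scale was -0.54 and that of the cholesterol list -0.39. Of 19 IL-2 and STAT5 targets, 3 were lower (Il2ra, Bcl2 and Myc) and 1 (Pim1) higher (21.1% called). Only Bcl2 and Myc of these were robust. Pim1 was not called by edgeR (adjusted p = 0.0814) or by limma with scaling to the CD3 genes (0.661), which left 6 members lower and 0 higher. Of 16 Treg mediators, 5 were lower and 3 higher (50% called). The 15 TNF receptor superfamily members gave 3 lower and 2 higher (33.3%), and the 22 receptor complex and signalling genes 5 higher and 1 lower (27.3%), of which scaling to the CD3 genes left 0 higher and 1 lower. No member of the receptor complex list was called in all 8 fits that left out a library: higher members numbered 0 without monoclonal Treg B, monoclonal non-Treg B, polyclonal non-Treg A or polyclonal non-Treg B, 2 without monoclonal Treg A, 1 without monoclonal non-Treg A, 8 without polyclonal Treg B and 1 by edgeR. Lower Treg mediators numbered 1 without monoclonal non-Treg B, 2 without monoclonal Treg B, monoclonal non-Treg A or either polyclonal non-Treg library, and 3 without either polyclonal Treg library. Their higher members numbered 1 without monoclonal Treg B, monoclonal non-Treg B or polyclonal non-Treg A. In the TNF receptor superfamily no gene was called higher without monoclonal non-Treg B or either polyclonal non-Treg library, and 1 was called lower without either monoclonal non-Treg library or polyclonal non-Treg A.

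Markers of other cell types were part of the contrast too. MHC class II genes were lower for 5 of 10 (50%, against 5.56% of all genes) and higher for 0 by limma, with a median difference of -0.99. At an unadjusted p under 0.05 these were 6 and 0, and edgeR and DESeq2 called 3 and 5 lower and 0 higher. H2-Ob, an antigen-presentation chaperone subunit, was 85.5 and 83.6 CPM (Treg) and 297 and 388 CPM (non-Treg) in monoclonal mice and 50.9 and 38.3 CPM (Treg) and 17 and 18.8 CPM (non-Treg) in polyclonal mice (-3.25 ± 0.26, adjusted p = 1.19e-05). The classical chains were not called. H2-Aa fell by 1.84 in monoclonal and by 2.31 in polyclonal Treg cells (0.47 ± 0.27, adjusted p = 0.322), and H2-Ab1 and H2-Eb1 differed by -0.11 ± 0.32 and -0.15 ± 0.26 (adjusted p of 0.871 and 0.783). H2-Aa lay between 1037 and 4515 CPM in monoclonal and between 5.75 and 44.2 CPM in polyclonal libraries. The count of 5 lower members was 2 without monoclonal Treg B, monoclonal non-Treg A or monoclonal non-Treg B, and 3 without polyclonal non-Treg A.

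Lower were 3 of 11 conventional dendritic cell markers (Irf8, Zbtb46 and Clec4a4) and 2 of 10 plasmacytoid ones (Pacsin1 and Cox6a2). Of 16 tested macrophage and monocyte markers 3 were lower (Csf1r, Emr1 and Cybb), and of 8 tested B cell markers 2 (Cd79b and Cr2). These shares of 27.3%, 20%, 18.8% and 25% stand beside 5.56% of all genes. Of these genes, Irf8, Pacsin1 and Cybb were robust. Without monoclonal non-Treg B, Zbtb46, Clec4a4, Csf1r, Emr1, Cd79b and Cr2 were not called (adjusted p between 0.0774 and 0.222), and Cox6a2 was not called without any 1 polyclonal library (between 0.0721 and 0.165). No member of these lists was called higher by limma, and at an unadjusted p under 0.05 none was. Among the conventional dendritic cell markers edgeR called 1 and DESeq2 3 higher. Irf8, a factor of dendritic cells, was 105 and 60.2 CPM (Treg) and 333 and 216 CPM (non-Treg) in monoclonal and 55.8 and 66.8 CPM (Treg) and 39.6 and 35.8 CPM (non-Treg) in polyclonal mice (-2.42 ± 0.34, adjusted p = 0.000597). The defining dendritic cell genes Flt3 and Siglech were not called, with differences of -0.84 ± 0.36 and -0.10 ± 0.61 (adjusted p of 0.174 and 0.943). The 12 neutrophil markers gave 0 calls by limma, edgeR and DESeq2 and 1 at an unadjusted p under 0.05. Their sum was 1608 and 292 CPM (Treg) and 537 and 103 CPM (non-Treg) in monoclonal mice. In polyclonal mice it was 52.9 and 21.8 CPM (Treg) and 42.7 and 21.3 CPM (non-Treg). Replicate A was above replicate B in all 4 groups. Beside the plasma cell and NK cell lists, 5.56% of all genes were lower and 3.64% higher. Of 7 plasma cell markers 3 were lower (Xbp1, Irf4 and Derl3) and 1 (Prdm1) higher. Of these genes only Irf4, which is also counted among the early response genes, was robust. NK cell markers were higher for 3 of 12 (Klrd1, Gzmb and Nkg7), and none of these 3 was called without any 1 of the 4 non-Treg libraries (adjusted p between 0.065 and 0.207). The CD8 T cell, erythroid and stromal lists had 0 calls by limma, with 0, 0 and 2 genes at an unadjusted p under 0.05, and 0, 0 and 1 call by DESeq2 and none by edgeR.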

How the data were processed

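Gene expression was measured by RNA sequencing in 8 libraries of splenic CD4+ T cells. Per the labels' protocols, poly-dT selected mRNA was converted with strand information kept and sequenced as single-end 50 bp reads. Genome build mm9 and the tools STAR 2.4.1a, Trimmomatic 0.33, HOMER 4.7, FastQC 0.10.1, edgeR and CASAVA 1.8.2 are listed, without roles, in the submitters' processing notes. The authors deposited CPM for 24016 genes, and per the file headers each row has a RefSeq transcript and mm9 coordinates. Each library summed to 1000000 CPM. Division by the value of 1 read gave whole numbers (tolerance 0.01 read) for 100% of values, and these recovered reads totalled 14076330 to 19722321 per library. The sources used here do not give the handling of reads that match several genes.

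Samples were grouped by strain and reporter as labelled. In R 4.3.3, limma 3.58.1 (trend and robust spread, 4 residual degrees of freedom) was fitted to log2(CPM + 1) of the 12881 genes that reached 1 CPM in 2 or more libraries. The pseudocount understates changes of low genes. The contrasts were the difference of Treg effects and the 2 Treg effects, 2-sided, Benjamini-Hochberg adjusted over all genes tested. The script was tested on simulated data. Alternatives were edgeR 4.0.16 and DESeq2 1.42.0 on recovered reads, other pseudocounts (0.25 and 4 CPM), other filters, TMM scaling, CD3 scaling, a block for replicate letter, a fit without trend and robust spread, and leaving out each library. The count test of edgeR called 947 genes.

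Genes were named by this rule: Foxp3; the 15 largest called differences per direction with mean log2(CPM + 1) of at least 2 and no overlap of replicate-level effects; the 5 largest per direction in each pattern; and members of 32 gene lists. The members and lists were chosen with earlier results of these data known. Promoter windows are RefSeq's on GRCm38.p6, matched by symbol. Some members of the lists are counted but not reported by name here.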

Additional observations from a re-analysis of the deposited data

Results flagged for a closer look

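The difference of Treg effects, tested directly as an interaction, passed the threshold for 1185 genes. Called Treg effects of opposite direction in the 2 kinds of mice together with a called difference were found for 89 genes. The 5 largest differences in each direction by the naming rule are given here, on the log2 scale. The difference was positive for Mtus1 (4.21), Il7r (3.47), Il9r (3.46), Il17rb (3.36) and Esm1 (2.93). It was negative for Cdhr3 (-5.26), Gucy1a3 (-4.72), Cd83 (-4.57), Zfp608 (-4.50) and Pla2g4f (-4.49). Each group held 2 libraries, too few to test for a library far from the others.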

How the results depend on the processing

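Over 182 named genes and the 18 alternatives, 2657 of 3248 values kept their direction and their side of the threshold, 591 kept the direction but no longer passed, and none was reversed. Of 558 counts for lists and patterns, 428 stayed within 1.5 times the reported one. The total of 1185 genes became 756 without a filter on low values and 685 without trend and robust spread. Higher genes, 469 or 3.64% of genes tested, became 289 (1.79%) and 192 (1.49%) in those fits and 85 (0.657%) with CD3 scaling. Lower genes, 716 or 5.56%, became 467 (2.89%) without a filter and 1624 (12.6%) with CD3 scaling. With 1 library left out, the total ran from 395 to 1663, higher genes from 1.09% to 6.03% and lower genes from 2.02% to 7.29%. The cause of these shifts was not tested, except that with 1 library left out a group rests on 1 sample assumed to vary like the others. The other alternatives called 947 (edgeR), 1379 (DESeq2), 1011 and 1504 (pseudocounts of 0.25 and 4 CPM), 1046 (stricter filter) and 1208 genes (TMM). With a replicate block for the letters A and B 1094 genes were called (424 higher and 670 lower). Whether the letters pair samples cannot be told. Deviations from group means of same-lettered libraries correlated across genes between -0.093 and 0.0969, and with 2 letters no finer check was possible. Summed neutrophil markers were higher in A than in B in all 4 groups. Depth limits genes under 0.152 to 0.213 CPM, the value of 3 reads.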

Other observations

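The share of genes called rose with expression level, from 5.08% of the 2577 genes with the lowest mean log2(CPM + 1) to 14.4% of the 2576 genes with the highest. Among those highest genes 216 were higher and 154 lower, and among the lowest 37 were higher and 94 lower. Called genes lay on every chromosome tested.

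Among genes named by size, several with no T cell role in the lists stood out by level. Adamts14, a procollagen peptidase, was 1.28 and 0.811 CPM in polyclonal Treg libraries, 29.2 and 26.2 in polyclonal non-Treg libraries and 6.31 to 12 CPM in the monoclonal libraries (difference 3.32 ± 0.48, adjusted p = 0.000793 by limma). Fsd1l was 32.3 and 21.8 CPM in polyclonal Treg, 0.696 and 0.452 in polyclonal non-Treg and 3.95 to 8.02 CPM in monoclonal libraries (-4.22 ± 0.56, adjusted p = 0.000375). Ntn4, a netrin, was 55.2 and 53.1 CPM in polyclonal Treg libraries and 1.47 to 9.24 CPM elsewhere (-2.97 ± 0.58, adjusted p = 0.00575). The Gt(ROSA)26Sor transcript was 27.9 and 27.4 CPM in monoclonal Treg and 4.32 to 19 CPM in the other libraries (2.70 ± 0.46, adjusted p = 0.00236). Coro2a, a coronin, rose in both kinds of Treg cells, by 1.16 and 2.86 (-1.70 ± 0.23, adjusted p = 0.000491). All 5 were called in each of the 18 alternatives.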
